A study of Homo sapiens with 5 samples.

Results

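YAP and TAZ are transcriptional coactivators that enter the nucleus, bind TEAD factors on DNA and switch on a set of target genes. The Hippo kinase cascade, in which MST kinases activate LATS kinases, phosphorylates YAP and TAZ and keeps them in the cytoplasm. Several target genes encode inhibitors of the same coactivators, so the pathway holds its own negative feedback, and in epithelial cells it is known to respond to cell density, shape and serum. The 10 genes described here, CCN1, CCN2, ANKRD1, AMOTL1, AMOTL2, AJUBA, LATS2, AXL, F3 and NUAK2, are widely used as readouts of YAP and TAZ. They were selected by gene symbol from the 64252 rows of a count table, and each matched a single row.

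The table holds RNA-seq counts from RPE-1, a line of immortalized cells of the human retinal pigment epithelium, whose controls are labelled WT and whose treated samples are labelled FAM53C KD. Cells received either ON-TARGET Control #1 siRNA (siCtrl, 3 libraries) or an ON-TARGETplus pool of siRNAs to FAM53C (siFAM53C, 2 libraries), each at 5 µM with Lipofectamine RNAiMAX, and were collected after 48 hr. The comparison asks which transcripts change upon its knock-down. All knock-down libraries received the same pool and the controls another siRNA. With no other siRNA to FAM53C among these libraries, loss of FAM53C and other effects of the pool cannot be told apart. Nothing in the labels says that libraries of a condition came from separate cultures, so p-values measure only the spread between these libraries, which may be technical.

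The libraries hold from 19260124 to 25615415 counts. FAM53C was lower in siFAM53C, with 60.9, 59.7 and 57.6 CPM (counts scaled to library size with TMM factors) in siCtrl and 14.2 and 22.3 CPM in siFAM53C, which on the log2 scale is a difference of -1.71 (SE 0.19; quasi-likelihood test of edgeR, Benjamini-Hochberg adjusted p = 0.00363). Of the exon bases of FAM53C, 704 are shared with CDC25C and another gene on the opposite strand, so its level is uncertain if strand was not used in counting. The libraries whose column name carries the number 3 are siCtrl replicate 3 and siFAM53C replicate 2. On the first principal component they lay at 33.7 and 44.9. There siCtrl replicates 1 and 2 lay at -31.5 and -47.4, and siFAM53C replicate 1 lay in between at 0.26. The component therefore did not follow the library names alone. Differences within the libraries named 3 and within those named 1 and 2 are also given. Of 9 markers of retinal pigment epithelium, RPE65 had no counts in any library, RLBP1, TYR and TYRP1 had at most 2 counts, and MITF and OTX2 were expressed; KRT8 and KRT18 were expressed whereas CDH1 and EPCAM had at most 4 counts. The summed level of the 4 epithelial markers ranged from 384 to 467 CPM in siCtrl and from 499.98 to 502 CPM in siFAM53C. Among the 4, only KRT8 did not overlap (285, 257 and 236 CPM in siCtrl, 319 and 328 CPM in siFAM53C). The same held for 35.5% of all genes tested. KRT18 overlapped, with 182, 173 and 148 CPM in siCtrl and 181 and 174 CPM in siFAM53C. The part of this sum in the results below was not tested, and KRT8 and KRT18 share 525 exon bases on opposite strands. Other sums overlapped between the conditions. That of 4 mesenchymal markers was 8551 to 11679 CPM in siCtrl and 8959 to 11041 CPM in siFAM53C. That of the 9 retinal pigment epithelium markers was 54.1 to 69.3 CPM in siCtrl and 52.4 to 63.1 CPM in siFAM53C.

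TEAD factors recognise the hexamer GGAATG, so the RefSeq promoters of the targets (GRCh38.p14, from 250 bases before to 50 bases after each annotated start) were searched for it on both strands, CATTCC being its reverse complement. Of the 10 genes, 9 matched, all but CCN1, with 12 annotated starts between them. The hexamer occurred in the promoters of 7 genes, which were 7 of the 12 promoters searched for these genes. CCN2 held it 3 times and ANKRD1 and NUAK2 held it 2 times, whereas 14% of 35116 promoters hold it at least once, 1.36% at least 2 times and 0.125% at least 3 times. The windows below are shown because they carry the matches of the genes that differed most between the conditions and of NUAK2, written 5′ to 3′ on the gene's strand with the hexamer in capitals.
CCN2, chr6:131951454-131951483, minus strand, 104 bases before the start: gtggggaGGAATGcgaGGAATGtccctgtt
CCN2, chr6:131951524-131951553, minus strand, 169 bases before the start: ttttcagacggaGGAATGctgagtgtcaag
ANKRD1, chr10:90921198-90921227, minus strand, 128 bases before the start: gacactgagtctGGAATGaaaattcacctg
ANKRD1, chr10:90921290-90921319, minus strand, 220 bases before the start: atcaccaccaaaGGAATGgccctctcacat
NUAK2, chr1:205321746-205321775, minus strand, 18 bases before the start: ttataacaacttGGAATGctgtgctttact
NUAK2, chr1:205321925-205321954, minus strand, 197 bases before the start: tcccctagtcccCATTCCtggtgggcgggt
AMOTL2, the second of its starts, chr3:134374499-134374528, minus strand, 69 bases before it: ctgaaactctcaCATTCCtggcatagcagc
AJUBA, the second of its starts, chr14:22976884-22976913, minus strand, 59 bases before it: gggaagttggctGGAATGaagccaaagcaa

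AXL held a match before the second of its starts and LATS2 held a match 9 bases after its start, and F3 and AMOTL1 held none. The AP-1 motif TGAGTCA, searched on both strands, which often lies near TEAD motifs in enhancers, occurred in 4.95% of all promoters and in that of F3 (chr1:94541951-94541980, minus strand, aatcactggggTGAGTCAtcccttgcaggg, with the motif in capitals), and overlapped no TEAD match. A match is a description of the letters only, and promoter windows of this size hold no distant enhancers.

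**Figure D1:**
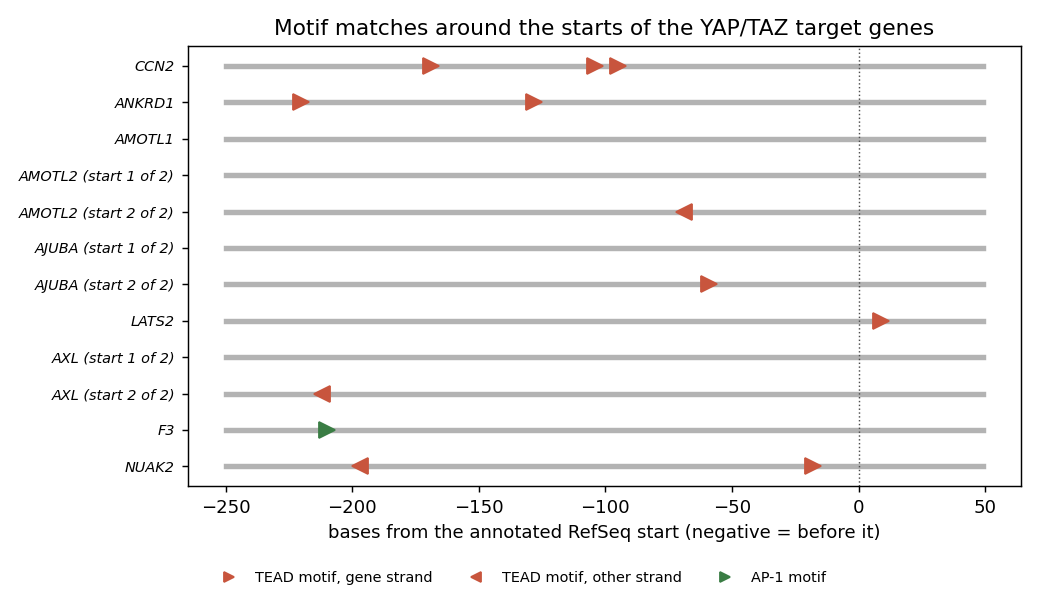
Positions of GGAATG (TEAD motif, red, pointing along or against the gene) and TGAGTCA (AP-1 motif, green) in the RefSeq promoters of 9 YAP/TAZ target genes. The x axis gives bases from the annotated start and each grey line is 1 start; CCN2 carries 3 TEAD matches and ANKRD1 and NUAK2 carry 2 each.

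In control cells the 10 genes spanned a wide range of levels. Compared per length, as mean CPM per kilobase of merged exons in siCtrl, CCN1 (248), AXL (242), CCN2 (226) and ANKRD1 (222) led, and the ranges over the 3 libraries overlapped between each neighbouring pair of these. F3 followed at 169 CPM per kilobase. AMOTL2 (38.3) and AJUBA (30.5) overlapped each other, and AMOTL1 (17.1), LATS2 (11.4) and NUAK2 (3.33) came last, each below the range of the gene before it. Transcripts of the secreted and surface proteins and of the nuclear ANKRD1 were the abundant ones. Those of the scaffolds and of the kinases LATS2 and NUAK2 were the scarce ones.

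Between the conditions the targets did not move as a group. All 10 genes were tested, 4 had a log2 fold change below 0 and 6 above 0, and their median was 0.052, where the median of all 15341 genes tested was 0.016. In edgeR (quasi-likelihood test, Benjamini-Hochberg adjustment over all genes) ANKRD1 fell, 0 genes rose and 9 did not pass the threshold, where 3.96% of all genes tested were called, 3.47% lower and 0.489% higher. As RNA of whole cultures was measured, fewer cells with a transcript and less of it per cell cannot be told apart. DESeq2's Wald test called ANKRD1 and CCN2 lower and 0 higher, beside 6.98% and 2.02% of its genes. Limma-voom called ANKRD1 alone, beside 3.83% of all genes (3.35% lower, 0.482% higher). With an unadjusted p under 0.05 in edgeR, ANKRD1 and CCN2 were lower and AMOTL2 was higher, beside 17.1% of all genes (10.5% lower, 6.61% higher). The libraries of the conditions did not overlap in CCN2 and ANKRD1, both lower in siFAM53C, and in AJUBA, which was higher, 3 of 10 genes beside 35.5% of all genes (18.8% lower, 16.7% higher).

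ANKRD1 (ENSG00000148677, chr10:90912096-90921087, minus strand) encodes a nuclear ankyrin-repeat protein that is induced by stretch in muscle. It had 411, 388 and 393 CPM in siCtrl and 267 and 277 CPM in siFAM53C. The controls lay within a narrow band and both knock-down libraries lay well below it. The mean of the controls was 398 ± 12 CPM (SD, n = 3) and that of the knock-down libraries 272 ± 6.94 CPM (SD, n = 2). The log2 fold change was -0.55 (SE 0.10, 95% interval -0.79 to -0.30, adjusted p = 0.0309, edgeR). It was -0.58 within the libraries named 1 and 2 and -0.50 within those named 3. The call, but not the sign, depended on single libraries. Without siCtrl replicate 1, siCtrl replicate 2, siFAM53C replicate 1 or siFAM53C replicate 2 the log2 fold change was -0.52, -0.56, -0.53 and -0.58, with adjusted p of 0.141, 0.139, 0.263 and 0.209 in edgeR. These fits called 1.4%, 1.18%, 0.979% and 1.24% of all genes lower. Without siCtrl replicate 3 it was called (-0.55, adjusted p = 0.0105, edgeR), beside 5.91% of genes called lower. When scaled by library totals alone, it fell just short of the threshold (-0.48, adjusted p = 0.0513, edgeR; 2.71% of genes called lower and 0.789% higher). Over the 15 alternative fits with a test the adjusted p ranged from 6.69e-05 to 0.263, and 10 called it.

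CCN2 and CCN1 encode secreted matricellular proteins of the same family, formerly called CTGF and CYR61, that signal through integrins. CCN2 (ENSG00000118523, chr6:131948176-131951372, minus strand) had 480, 529 and 577 CPM in siCtrl and 401 and 395 CPM in siFAM53C. The knock-down libraries were almost equal and lay below the lowest control. Its log2 fold change was -0.41 (SE 0.12, 95% interval -0.69 to -0.13, adjusted p = 0.13, edgeR), with -0.33 within the libraries named 1 and 2 and -0.55 within those named 3. It did not pass the threshold in edgeR, and passed it in DESeq2 (-0.41, adjusted p = 0.0269) and in edgeR with a term for the libraries named 3 (-0.42, adjusted p = 0.00195), a fit in which 10.7% of all genes were called lower and 6.76% higher. Of its exon bases, 278 are shared with LINC01013 on the opposite strand, as are 496 of AMOTL1 and 67 of AXL with other genes, so these levels are uncertain if strand was not used in counting.

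CCN1 (ENSG00000142871, chr1:85580761-85584589, plus strand) had 957, 795 and 998 CPM in siCtrl and 959 and 998 CPM in siFAM53C. Both knock-down libraries lay within the range of the controls. The log2 fold change was 0.094 (SE 0.13, 95% interval -0.22 to 0.40, adjusted p = 0.796, edgeR), an interval that leaves room for a change of either sign. The log2 ratio of CCN2 to CCN1 was -0.99, -0.59 and -0.79 in siCtrl and -1.26 and -1.34 in siFAM53C. Relative to CCN1, CCN2 was lower in both knock-down libraries than in any control, by 0.51 on the log2 scale (-0.51, siFAM53C minus siCtrl; exact permutation test over libraries, two-sided p = 0.2, the smallest that 3 against 2 libraries allow).

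**Figure D2:**
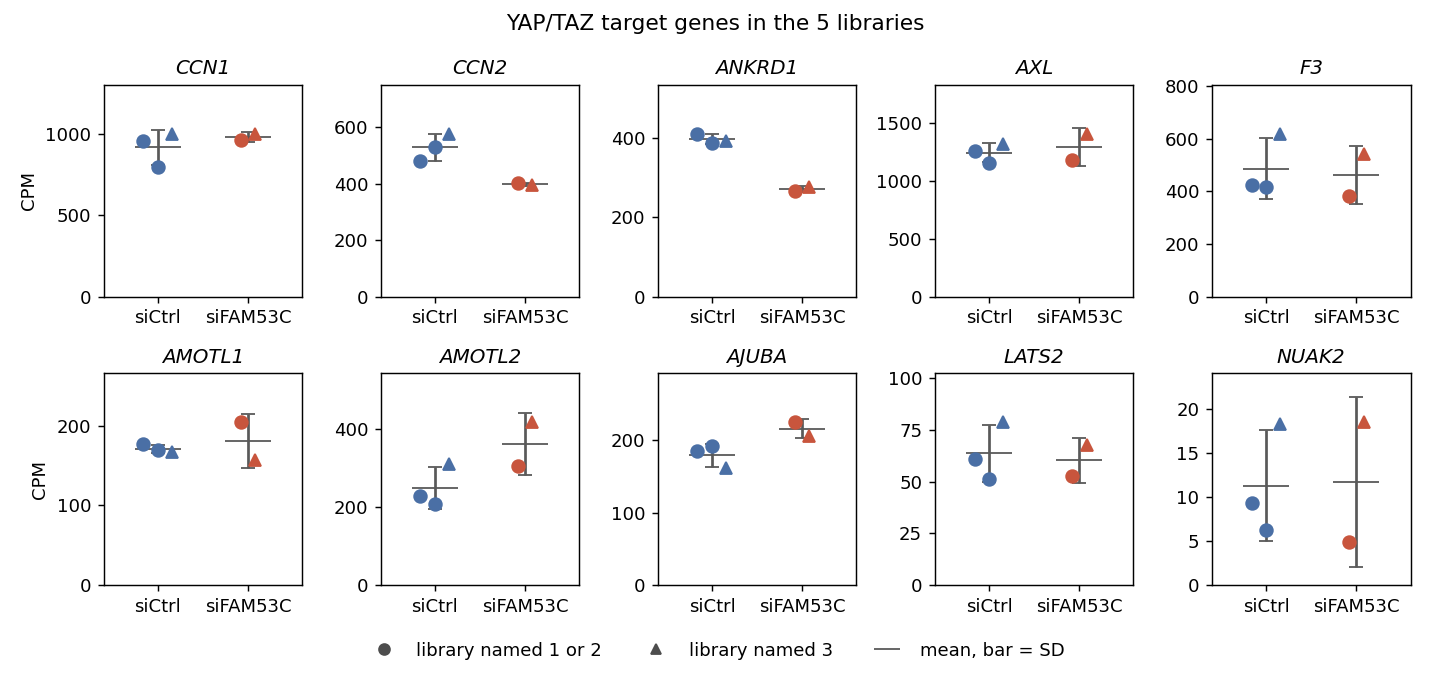
Level of each of the 10 YAP/TAZ target genes in CPM (y axis, from 0) in 3 siCtrl and 2 siFAM53C libraries (x axis); circles are libraries named 1 or 2, triangles libraries named 3, horizontal lines the means and bars the SD. ANKRD1 (267 and 277 CPM against 388 to 411) and CCN2 lie below all controls in siFAM53C and AJUBA lies above them, while NUAK2, F3 and LATS2 are higher in the triangles of each condition.

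AMOTL1, AMOTL2 and AJUBA encode scaffold proteins that act on the pathway itself. Angiomotin-like proteins hold YAP at junctions and at actin, and AJUBA is a LIM protein that binds LATS kinases. AMOTL2 (ENSG00000114019, chr3:134355347-134375479, minus strand) had 228, 206 and 309 CPM in siCtrl and 304 and 417 CPM in siFAM53C. Within each side of the library names the knock-down was above the control, but siCtrl replicate 3 exceeded siFAM53C replicate 1, so the conditions overlapped. The log2 fold change was 0.54 (SE 0.20, 95% interval 0.064 to 1.02, adjusted p = 0.236, edgeR), 0.49 within the libraries named 1 and 2 and 0.43 within those named 3. With a term for the libraries named 3 it was 0.46 (adjusted p = 0.000637, edgeR), and without siCtrl replicate 3 it was 0.74 (adjusted p = 0.0193), both past the threshold, in fits that called 6.76% and 2.76% of all genes higher. With no filter on low counts it was 0.54 (adjusted p = 0.00372, edgeR), in a fit that called 1.41% of all genes higher and 3.61% lower. Without siFAM53C replicate 2 it was 0.29 (adjusted p = 0.761, edgeR).

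AJUBA (ENSG00000129474, chr14:22971177-22982551, minus strand) had 185, 192 and 162 CPM in siCtrl and 225 and 207 CPM in siFAM53C. Each knock-down library was above each control. The log2 fold change was 0.27 (SE 0.12, 95% interval -0.00082 to 0.54, adjusted p = 0.294, edgeR), with 0.26 within the libraries named 1 and 2 and 0.35 within those named 3. The term for the libraries named 3 gave 0.30 (adjusted p = 0.0136, edgeR).

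AMOTL1 (ENSG00000166025, chr11:94706431-94876748, plus strand) had 177, 170 and 167 CPM in siCtrl and 204 and 157 CPM in siFAM53C. The knock-down libraries lay on either side of the controls, and the log2 fold change was 0.079 (SE 0.13, 95% interval -0.22 to 0.38, adjusted p = 0.829, edgeR). The log2 ratio of AMOTL2 to AMOTL1 was 0.37, 0.28 and 0.89 in siCtrl and 0.58 and 1.41 in siFAM53C. These ranges overlapped over all libraries (difference 0.48, siFAM53C minus siCtrl), whereas siFAM53C was above siCtrl both within the libraries named 1 and 2 and within those named 3. The exact permutation test gave a two-sided p of 0.4, and with a smallest possible value of 0.2 it could not have passed the threshold. AMOTL1 itself was 0.24 within the libraries named 1 and 2 and -0.088 within those named 3.

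LATS2 and NUAK2 encode kinases. LATS2 phosphorylates YAP and TAZ, and NUAK2 is a kinase of the AMPK-related family that acts on actomyosin and favours YAP activity. LATS2 (ENSG00000150457, chr13:20973036-21061586, minus strand) had 61.2, 51.3 and 78.7 CPM in siCtrl and 52.7 and 67.8 CPM in siFAM53C. The knock-down libraries fell inside the range of the controls, and the log2 fold change was -0.082 (SE 0.20, 95% interval -0.54 to 0.38, adjusted p = 0.889, edgeR). NUAK2 (ENSG00000163545, chr1:205302063-205321745, minus strand) had 9.30, 6.28 and 18.3 CPM in siCtrl and 4.88 and 18.5 CPM in siFAM53C, from 219, 120, 350, 129 and 436 counts. Its high libraries were those named 3, in both conditions. The log2 fold change of 0.047 (SE 0.70, 95% interval -1.75 to 1.84, adjusted p = 0.985, edgeR) therefore bounds the difference poorly, and it was -0.64 within the libraries named 1 and 2 and 0.013 within those named 3.

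AXL, a receptor tyrosine kinase, and F3, tissue factor that starts blood coagulation, stand at the cell surface. AXL (ENSG00000167601, chr19:41219223-41261766, plus strand) had 1254, 1153 and 1319 CPM in siCtrl and 1178 and 1406 CPM in siFAM53C. F3 (ENSG00000117525, chr1:94529173-94541759, minus strand) had 424, 417 and 619 CPM in siCtrl and 384 and 541 CPM in siFAM53C. The conditions overlapped in both genes. The log2 fold change was 0.057 for AXL (SE 0.13, 95% interval -0.25 to 0.36, adjusted p = 0.883, edgeR). It was -0.030 within the libraries named 1 and 2 and 0.091 within those named 3. For F3 the value was -0.074 (SE 0.22, 95% interval -0.59 to 0.44, adjusted p = 0.912, edgeR).

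**Figure D3:**
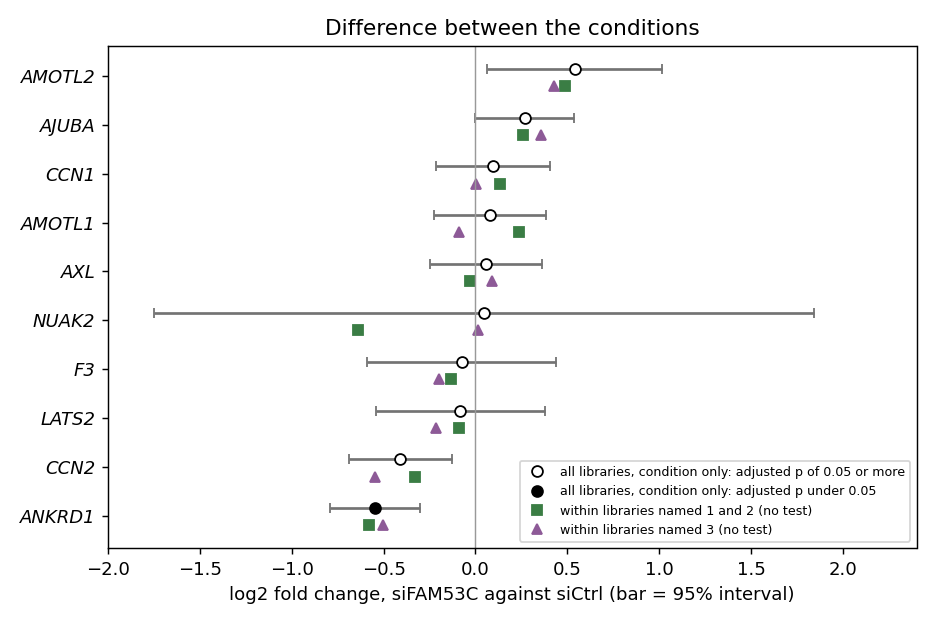
Log2 fold change of siFAM53C against siCtrl (x axis) for the 10 genes, with 95% intervals from edgeR; the filled circle passed the adjusted threshold, and squares and triangles give the differences within the libraries named 1 and 2 and within those named 3. ANKRD1 (-0.55) is the filled circle, CCN2 (-0.41), AMOTL2 (0.54) and AJUBA (0.27) keep their sign on both sides, and NUAK2 has the widest interval.

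The library names separated some of these genes, such as NUAK2, F3 and LATS2, more than the siRNA did. For AMOTL2 the differences were of similar size (log2 fold change between the conditions 0.54). In siCtrl, replicate 3 was above the mean of replicates 1 and 2 by 1.25 on the log2 scale for NUAK2, 0.56 for F3, 0.51 for AMOTL2 and 0.49 for LATS2. In siFAM53C, replicate 2 was above replicate 1 by 1.90, 0.49, 0.45 and 0.36 for the same genes. AJUBA (-0.22 and -0.12) and AMOTL1 (-0.053 and -0.38) were lower in the libraries named 3 in both conditions. CCN2 and ANKRD1 had opposite signs in the conditions (0.19 and -0.024 for CCN2, -0.023 and 0.052 for ANKRD1). In all, 6 genes were higher and 2 lower in the libraries named 3 in both conditions, 80% with the same sign, beside 69.0% of all genes tested. What the number 3 marks is not given in the sources used here.

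**Figure D4:**
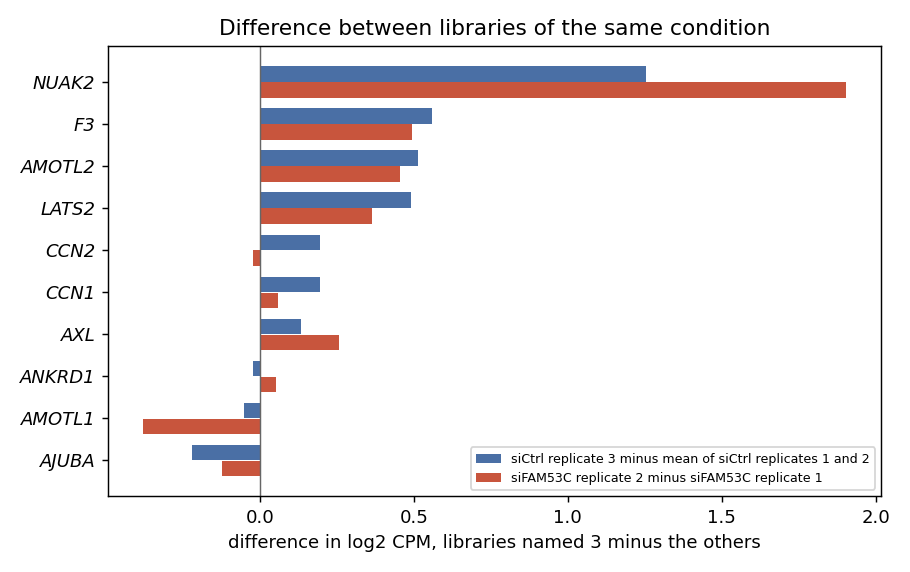
Difference in log2 CPM (x axis) between the libraries named 3 and the others for each gene, within siCtrl (replicate 3 minus the mean of replicates 1 and 2, blue) and within siFAM53C (replicate 2 minus replicate 1, red). NUAK2 has the longest bars (1.25 and 1.90), F3, AMOTL2 and LATS2 follow in both conditions, and ANKRD1 and CCN2 have short ones.

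Counts of the targets called under other settings read against their own backgrounds as follows. A replicate block by the numbers in the titles called 1 target lower and 1 higher, where 5.58% of all genes were lower and 2.31% higher. A replicate block by the numbers in the library names called 2 lower and 2 higher, where the backgrounds were 8.8% and 4.18%. With a floor of 1 CPM, with DESeq2's size factors and without robust dispersions ANKRD1 alone was called, beside lower shares of 4.26%, 3.36% and 3.21% and higher shares of 0.802%, 0.489% and 0.404%. No target was called higher without siCtrl replicate 1, siCtrl replicate 2, siFAM53C replicate 1 or siFAM53C replicate 2, where 0.0605%, 0.0395%, 0.0623% and 0.168% of all genes were.

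To see which genes shared the pattern of the best-known targets, the log2 CPM of each gene, centred on its mean over the 5 libraries, was compared with that of CCN1, CCN2 and ANKRD1 across 9291 genes with a mean of at least 10 CPM. Nearest to ANKRD1 were CD46 (root mean square difference 0.023 on the log2 scale), POLR3A (0.031) and AP3D1 (0.034). Nearest to CCN2 were ZC3H12C (0.022), GNPTAB (0.027) and ACSL4 (0.030), and nearest to CCN1 were ZBTB25 (0.010) and IRS1 (0.024). With 5 libraries, many genes can come this close, and no target was among the neighbours because the targets were left out of the search.

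A wider list held 14 further genes of a YAP/TAZ target signature known from cancer genomics. Each was tested, and 8 had a negative and 6 a positive log2 fold change, with a median of -0.084. By edgeR 0 were called (unadjusted p under 0.05 in 2 that were lower and 1 that was higher, beside 10.5% and 6.61% of all genes), by limma-voom 0 and by DESeq2 1, RBMS3, which was lower, beside 6.98% of all genes. The highest values were those of ARHGEF17, a guanine nucleotide exchange factor (54.97, 45.6 and 60.2 CPM in siCtrl, 68.5 and 73.9 in siFAM53C, log2 fold change 0.41), and MYOF, a membrane repair protein (0.23). The lowest were those of TGFB2, a TGF-beta ligand, and RBMS3, an RNA-binding protein. TGFB2 had 107, 99.3 and 193 CPM in siCtrl and 53.5 and 85.4 CPM in siFAM53C, and its log2 fold change of -0.94 had an SE of 0.37 (adjusted p = 0.298, edgeR), and RBMS3 had 22.4, 24.3 and 28.8 CPM in siCtrl and 14.2 and 16.5 CPM in siFAM53C (-0.72, SE 0.17, adjusted p = 0.0652, edgeR). In each of these 4 genes the conditions did not overlap, as in 3 lower and 2 higher genes of the whole list and in 35.5% of all genes. ARHGEF17 and TGFB2 share 979 and 701 exon bases with the antisense genes ARHGEF17-AS1 and TGFB2-AS1. With a term for the libraries named 3, which called 10.7% of all genes lower and 6.76% higher, 4 of the 14 were lower and 2 higher, TGFB2 at -1.04 (adjusted p = 5.96e-07, edgeR).

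The Hippo pathway above these targets was also tested. Of 32 components 30 had enough counts, VGLL1 and VGLL2 having none, and their median log2 fold change was -0.068, with 17 below 0 and 13 above. By edgeR 0 were called (unadjusted p under 0.05 in 5 that were lower and 0 that were higher, beside 10.5% and 6.61% of all genes), by limma-voom 0 and by DESeq2 2 lower and 0 higher, beside 6.98% and 2.02%. The median was 0.14 over 8 effectors and partners, -0.25 over 10 genes of the kinase cascade and -0.16 over 12 upstream regulators and scaffolds. The highest values were those of AMOT, an angiomotin (0.37), and VGLL4, which competes with YAP for TEAD (0.36). The lowest were those of WTIP, a LIM protein related to AJUBA (-0.84), and SCRIB, a polarity protein (-0.84). None of these passed the threshold. Within the libraries named 1 and 2 WTIP was -1.38 and SCRIB -1.42, and within those named 3 they were -0.072 and -0.62. AMOT was 0.34 and VGLL4 0.30 within the libraries named 1 and 2, and 0.29 and 0.70 within those named 3.

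The coactivators and the kinase with the smallest p of the list are named outside the rule for naming genes, after their values were seen. YAP1 had 205, 203 and 214 CPM in siCtrl and 238 and 230 CPM in siFAM53C (log2 fold change 0.17, adjusted p = 0.439, edgeR). WWTR1, which encodes TAZ, had 182, 201 and 138 CPM in siCtrl and 140 and 98.2 CPM in siFAM53C (-0.55, adjusted p = 0.232, edgeR), and was -0.45 within the libraries named 1 and 2 and -0.49 within those named 3. Of its exon bases 756 are shared with WWTR1-AS1. STK3, which encodes the kinase MST2, had 20.1, 21.7 and 26.1 CPM in siCtrl and 11.6 and 14.2 CPM in siFAM53C (-0.81, SE 0.18, adjusted p = 0.0554, edgeR), and was called by DESeq2 (adjusted p = 0.00405). With the term for the libraries named 3, WWTR1 (-0.47, adjusted p = 0.000784) and STK3 (-0.86, adjusted p = 0.000452) were among 5 components called lower by edgeR, and 2 were called higher, beside 10.7% and 6.76% of all genes. YAP1 and WWTR1 thus had log2 fold changes of opposite sign, a difference that was not tested.

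**Figure D5:**
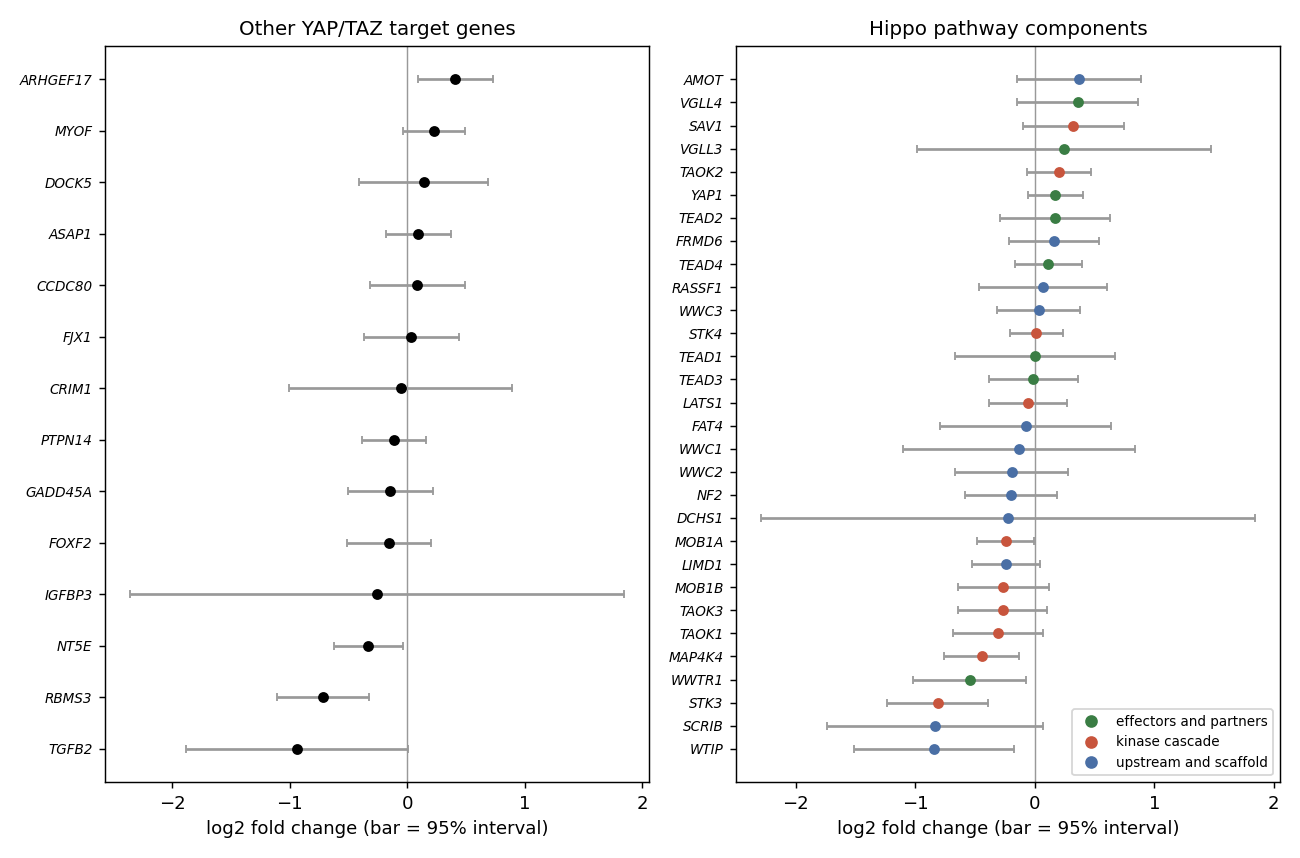
Log2 fold change of siFAM53C against siCtrl (x axis, bars 95% intervals from edgeR) for 14 further YAP/TAZ targets (left) and 30 tested Hippo pathway components coloured by role (right). No gene passed the adjusted threshold; TGFB2 (-0.94) and RBMS3 lie lowest on the left, and WTIP, SCRIB and STK3 on the right.

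Some of these transcripts carry GACAAGA, a heptamer whose presence in 3′ UTRs went with lower levels in siFAM53C in earlier work on the same counts. Of 12083 tested genes with an annotated 3′ UTR (FAM53C left out), 11.6% held it in their longest one, with a median log2 fold change of -0.18 and 15% called lower, against 0.020 and 2.92% for the rest. Among the 10 targets AMOTL1 held it, 1752 bases into the 3′ UTR, where its transcript reads agaaggaaGACAAGAggtgtaag (heptamer in capitals, ENST00000317829, GENCODE 44), and its level did not differ detectably. ANKRD1 and CCN2 did not hold it. Of the 14 further targets 2 held it, TGFB2 and RBMS3, each below 0. Of the 32 components 6 did: WWTR1, TEAD1, STK3, TAOK2, LIMD1 and WTIP, 4 of them below 0. These stand beside the 11.6% of all genes that held it. The contrast over all genes and the values of these holders rest on the same counts as the earlier work and are no separate test. The length of the 3′ UTR was not taken into account. The part of the heptamer in these values was not tested.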

How the data were processed

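Counts of 3 siCtrl and 2 siFAM53C libraries of RPE-1 cells were analysed. The deposited values are raw counts per Ensembl gene: per the methods, the authors trimmed paired reads with CutAdapt (2.10, also in the submitters' processing notes), used HISAT2 with a reverse-strand setting for alignment to hg38, and assigned reads to genes with featureCounts. The annotation release is not given in the sources used here, nor is the strandedness of the counting; if strand was not used, genes that share exon bases with an opposite-strand gene are uncertain. The methods describe duplicates, whereas 3 control libraries were present, and all entered the fits. The labels give another RNA kit than the methods.

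Symbols, positions, exon lengths and 3′ UTRs come from GENCODE 44 (GRCh38), which gave a symbol to 56105 of 64252 rows. In R 4.3.3, edgeR 4.0.16 was used: filterByExpr (minimum count 10, minimum total 15), TMM factors, robust dispersions, a model with condition only, the quasi-likelihood test with Benjamini-Hochberg adjustment over 15341 genes and a threshold of 0.05. Log2 CPM used a prior count of 2. Ratios were compared with SciPy 1.17.1. The members, lists and tests were chosen with earlier results of these data known. Named genes are the 10 targets, FAM53C, any called gene and the 2 highest and 2 lowest of each list, and the 3 nearest profiles of CCN1, CCN2 and ANKRD1, of which 1 is not reported here.

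Libraries of a condition differed by more than sampling noise (chi-square per gene from 9.31 to 45.3). The libraries held 19260124 to 25615415 counts. Tested on simulated counts for this comparison (14893 genes), edgeR recovered 84 of 99 genes changed by 2 and 49 of 96 changed by 1 on the log2 scale. These counts followed the trend of the dispersion and held no difference along the library names. Changes smaller than 1 were not simulated, so how many of them would be recovered is not known. Alternatives were DESeq2 1.42.0, limma-voom (limma 3.58.1), other size factors and filters, unadjusted p, replicate blocks, a term for the libraries named 3, each library left out and, added after seeing the data, dispersions without robust estimation.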

Additional observations from a re-analysis of the deposited data

How the results depend on the processing

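The number of the 10 targets called lower was 1 with the main settings, 2 with DESeq2, 2 with a term for the libraries named 3, 2 at an unadjusted p and 0 with library totals; the number called higher was 0, and became 1 with no filter on low counts, 2 with the term for the libraries named 3 and 1 at an unadjusted p. Leaving out each library in turn, the lower calls ranged from 0 to 1 and the higher calls from 0 to 1. Of the 14 further targets, 0 were lower and 0 higher with the main settings; DESeq2 called 1 lower, no filter 1 lower, the term for the libraries named 3 4 lower and 2 higher, an unadjusted p 2 lower and 1 higher, and leaving out a library from 0 to 1 lower and from 0 to 2 higher, the highest without siCtrl replicate 3. Of the Hippo components, 0 were lower and 0 higher; DESeq2 called 2 lower, no filter 4 lower, the term for the libraries named 3 5 lower and 2 higher, an unadjusted p 5 lower, and leaving out a library from 0 to 4 lower, the highest without siCtrl replicate 3. Of all genes, the main settings called 3.47% lower and 0.489% higher, and DESeq2 6.98% and 2.02%. With no filter the shares were 3.61% and 1.41%, and with the term for the libraries named 3 they were 10.7% and 6.76%. At an unadjusted p they were 10.5% and 6.61%, and with library totals 2.71% and 0.789%. Without siCtrl replicate 3 they were 5.91% and 2.76%. The cause was not tested. Without robust dispersions the counts were unchanged for all 3 lists.

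The titles number the libraries 1 to 3 in siCtrl and 1 to 2 in siFAM53C, and the column names pair others; no source says that a number marks a shared culture, and with 2 pairs the numbers were not taken as pairing. Deviations from the condition means correlated across genes at 0.17 and -0.28 for titles 1 and 2, and at 0.17 and 0.37 for column names 1 and 3. A replicate block by titles called 1 target higher, AMOTL2 (0.72, adjusted p = 0.019, edgeR), 1 further target higher and 4 Hippo components lower. A replicate block by library names called 2 targets lower, ANKRD1 and CCN2 (-0.40, adjusted p = 0.00974, edgeR), and 2 higher, AMOTL2 (0.42, adjusted p = 0.00452) and AJUBA (0.32, adjusted p = 0.0294), 4 further targets lower, and 4 Hippo components lower and 1 higher. Among all genes the block by titles called 856 lower (5.58%) and 355 higher (2.31%). That by library names called 1350 lower (8.8%) and 642 higher (4.18%), against 533 (3.47%) and 75 (0.489%) without a block.

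FAM53C was -2.08 within the libraries named 1 and 2 and -1.37 within those named 3. Signs turned for LATS2 (0.091) and F3 (0.12) with the replicate block by titles, and for NUAK2 with limma-voom (-0.14), the replicate block by library names (-0.43) and the term for the libraries named 3 (-0.36), none of these past the threshold, and within the libraries named 1 and 2 (-0.64). AMOTL1 turned within the libraries named 3 (-0.088) and AXL within those named 1 and 2 (-0.030). Over the fits without 1 library the log2 fold change ranged from -0.13 to 0.25 for AMOTL1, -0.28 to 0.11 for LATS2, -0.079 to 0.17 for AXL, -0.34 to 0.15 for F3 and -1.21 to 0.71 for NUAK2. CCN1, CCN2, ANKRD1, AMOTL2 and AJUBA kept their sign in each of the 15 fits. For CCN1 the log2 fold change went as low as 0.0018 in these fits and up to 0.17, so its sign says little. With a condition reduced to 1 library, that library was assumed to vary like the others. The 95% intervals of CCN1, AMOTL1, AJUBA, LATS2, AXL, F3 and NUAK2 include 0, and that of NUAK2 is the widest. Its SE was 0.70, and 0.22 with the term for the libraries named 3.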

Other observations

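COL1A1, a collagen chain listed as a mesenchymal marker, had 18.3, 15.8 and 18.6 CPM in siCtrl and 29.2 and 29.4 CPM in siFAM53C. Its log2 fold change was 0.74 (SE 0.14, adjusted p = 0.031, edgeR), and it was 0.78 within the libraries named 1 and 2 and 0.66 within those named 3. In the main fit 0.489% of all genes were called higher. The other mesenchymal markers, CDH2 (-0.44), VIM (-0.14) and FN1 (0.13), did not pass the threshold. CDH2 was lower in both knock-down libraries than in any control. The summed level of the 4 mesenchymal markers overlapped between the conditions. IGFBP3, a secreted binding protein of insulin-like growth factors and one of the further YAP/TAZ targets, had 237, 245 and 613 CPM in siCtrl and 131 and 481 CPM in siFAM53C, so it was high in both libraries named 3. Its log2 fold change was -0.26 (SE 0.77, adjusted p = 0.916, edgeR). With a term for the libraries named 3 it was -0.65 (SE 0.11, adjusted p = 0.00138, edgeR), and it was -0.88 within the libraries named 1 and 2 and -0.35 within those named 3. COL1A1, the other mesenchymal markers and IGFBP3 were named after their values were seen.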
